A study of Homo sapiens with 8 samples.

Results

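The enzymes that bring pyruvate into mitochondria, oxidize it and turn the tricarboxylic acid (TCA) cycle were examined. The malic enzymes, which make pyruvate from malate, and ATP citrate lyase, which makes cytosolic acetyl-CoA from citrate, were included. The members are 35 genes listed by function. Of these, 34 have a row among the 14526 genes of the deposited table, and ME3, which encodes a mitochondrial malic enzyme, has none. Total RNA was sequenced from 4 control replicates and from 4 replicates treated with 10 mM sodium benzoate (SB) for 24 h, all grown in DMEM with 10% FBS. SB is a food preservative that cells convert to benzoyl-CoA. The cells of both groups are labelled HepG2, a line derived from a human liver carcinoma, and carry no other stated agent or genetic change. Of 20 hepatocyte markers looked up to check that label, 17 have no row in the table used here, ALB, APOA1, APOB, TTR, SERPINA1, AFP and HNF4A among them. The authors kept a gene only if it exceeded 1 CPM in 2 or more samples, so the defining markers of the label are missing from a table filtered in this way. Among those with a row, TF, the transferrin gene, was at most 0.485 RPKM in any library, and CPS1, the first enzyme of the urea cycle, went from 6.57 ± 0.319 to 11.02 ± 0.0631 RPKM (limma log2 fold change 0.67, adjusted p = 8.81e-07), where TF was also called higher. Their part in the results was not tested. The label is thus not borne out by its defining markers, and the cells are named here by their treatment only. CD68 is the one of 4 leukocyte markers with a row and was at or below 2.05 RPKM in every library. No endothelial marker of 3 has a row, and the fibroblast markers COL1A1 and LUM, of 4 listed, summed to at most 5.71 RPKM.

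Levels are RPKM, the reads of a gene scaled to its length in kilobases and to the library size, which the authors adjusted by the TMM method. Reads recovered from these values came to 36990091 to 44492817 per control library and 37161801 to 44878446 per SB-treated library. Each member rested on between 860 and 23762 reads per library. Control replicate 1 stood apart from the other controls. Transcript GC content (the share of G and C bases) accounted for 30.2% of the variance across genes in its deviation from the gene means, against at most 6.44% in any other library. For called genes, values without it are given where they differ by more than 1.5 times. The RNA is from whole cultures, so less RNA in every cell and less RNA in some cells cannot be told apart.

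In the TCA cycle, acetyl-CoA joins oxaloacetate to form citrate, and a series of oxidations returns the carbon to oxaloacetate while reducing NAD and FAD for the respiratory chain. Pyruvate reaches it through the mitochondrial pyruvate carrier and then either the pyruvate dehydrogenase complex, which makes acetyl-CoA, or pyruvate carboxylase, which makes oxaloacetate. The complex is switched off when pyruvate dehydrogenase kinases phosphorylate its E1 subunit and on again by dedicated phosphatases. In liver the same reactions also feed gluconeogenesis and fatty acid synthesis.

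Most of the transcripts were lower in SB-treated cells. Of the 34 members, 26 fell and 5 rose with an adjusted p-value below 0.05 (limma on log2(RPKM + 1), Benjamini-Hochberg over all 14526 genes), and 3 did not pass. Over all genes, 32.6% were called lower and 33.0% higher, together 65.6%. Calls were thus common in the table. Of the members 76.5% were called lower and 14.7% higher. For the same 31 members the 4 values of one group did not overlap the 4 values of the other, 26 with SB-treated below and 5 above. Groups without overlap made up 30.5% of all genes with SB-treated below and 31.0% above, together 61.5%. The median log2 fold change was -0.31 over the members and 0.00 over all genes, which is a description of a list and was not tested as a set. The changes were modest in size. The 26 that fell lost between 12.2% and 48.9% of their mean RPKM, and the 5 that rose gained between 15.2% and 24.7%. PDK1, PDHB and MDH2 also passed an absolute log2 fold change of 0.5, which 10.6% of all genes did, 5.45% as a fall and 5.12% as a rise. PCK2 passed it too without control replicate 1 (-0.52). After a correction for GC content and length it was passed by PDK1, MDH2 and PCK2 (-0.53) and not by PDHB (-0.41), and without the TMM factors by PDK1 alone.

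**Figure D1:**
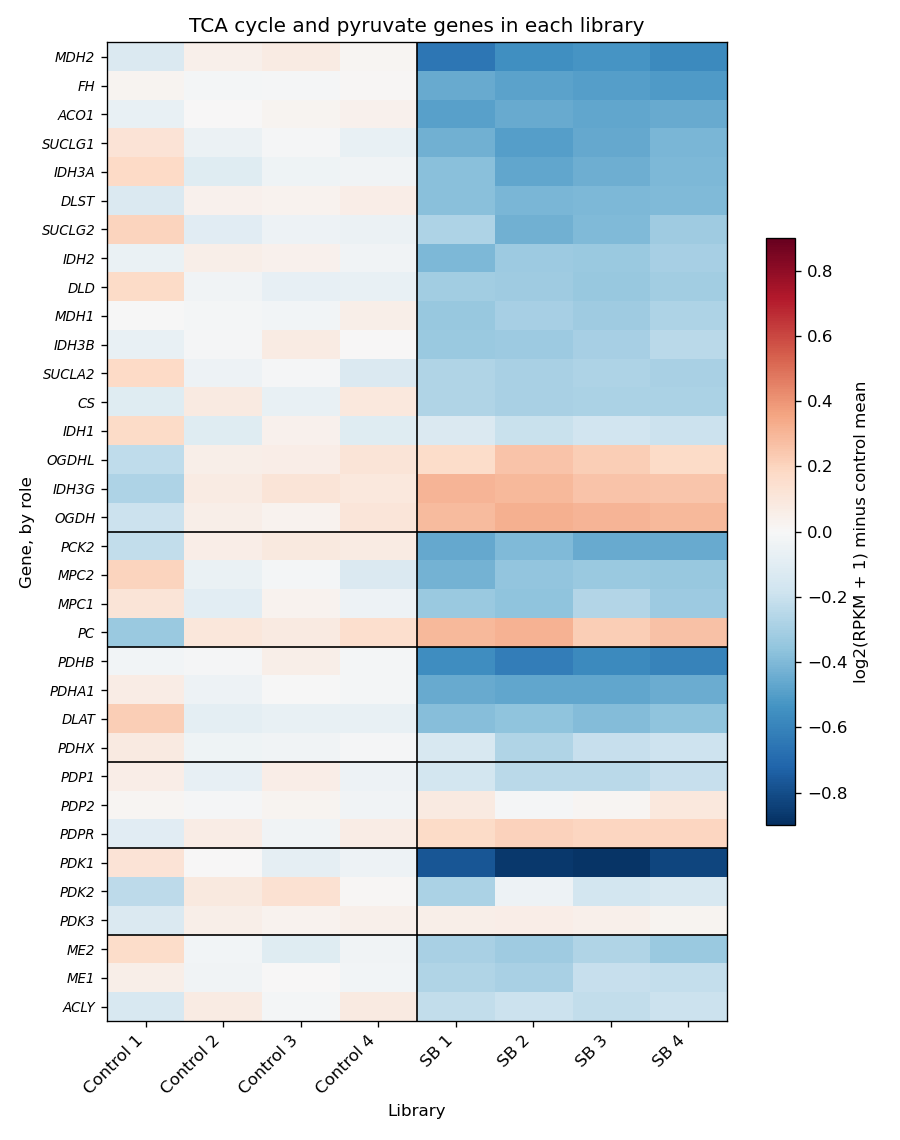
Each row is a gene, grouped by role, and each column a library; colour gives log2(RPKM + 1) minus the mean of the 4 controls. The rows of the 26 members that fell are blue in every SB-treated library, OGDH, OGDHL, IDH3G, PC and PDPR are red there, and control replicate 1 differs from the other controls in several rows.

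Among the 17 cycle enzymes, 14 fell and 3 rose. MDH2, the mitochondrial malate dehydrogenase that closes the cycle, fell most. In hg38 (GENCODE release 44, used for all loci here) it lies on chr7:76048051-76067508 (plus strand), and its RPKM was 127, 143, 146 and 141 in control replicates 1 to 4 and 88.4, 94.4, 96.1 and 93.05 in SB-treated replicates 1 to 4. Every SB-treated value lay well below the lowest control, with a log2 change of -0.58 (SE 0.051, limma adjusted p = 9.31e-06) and a 33.2% lower mean. FH, the fumarase that supplies malate to it, is on chr1:241497511-241519799 (minus strand). Its RPKM was 60.7, 58.9, 59.1 and 60.1 in control replicates 1 to 4 and 43.4, 42.4, 42.01 and 41.6 in SB-treated replicates 1 to 4, a narrow spread in both groups, with a log2 change of -0.48 (SE 0.031, limma adjusted p = 1.70e-06). SUCLG1 encodes the alpha subunit common to both succinyl-CoA synthetases, on chr2:84423528-84460045 (minus strand). Its RPKM was 66.3, 58.8, 60.5 and 58.2 in control replicates 1 to 4 and 44.9, 42.8, 43.9 and 45.5 in SB-treated replicates 1 to 4, highest in control replicate 1 and without overlap, with a log2 change of -0.45 (SE 0.047, limma adjusted p = 2.48e-05). Transcripts of FH and SUCLG1 have a GC content of 39.9% and 40.3%, and their counted lengths are 1867 and 1457 bases. After a joint correction for GC content and length their log2 fold changes were -0.30 and -0.22, still with limma adjusted p-values of 6.24e-05 and 2.25e-05. The part of GC content and that of length in these shifts were not tested separately.

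The partner subunits of succinyl-CoA synthetase fell too. SUCLG2, the beta subunit of the GTP-forming enzyme, went from 34.7 ± 3.53 to 26.8 ± 1.36 RPKM (SD, n = 4), and SUCLA2, the beta subunit of the ATP-forming enzyme, from 34.4 ± 3.31 to 27.98 ± 0.189 RPKM. Their log2 fold changes were -0.36 and -0.28, with limma adjusted p-values of 0.00115 and 0.00221. After the GC and length correction they were -0.25 and -0.13 (adjusted p = 2.57e-04 and 0.00649). MDH1, the cytosolic malate dehydrogenase of the malate-aspartate shuttle, changed from 108 ± 2.72 to 86.8 ± 1.67 RPKM, which is a log2 change of -0.31 (SE 0.034, limma adjusted p = 3.48e-05). That correction moved it to -0.17 (adjusted p = 6.32e-04).

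Citrate synthase, CS, makes citrate and was the member with the highest level per length. It went from 154 ± 10.9 to 126 ± 0.706 RPKM (SD, n = 4), which is a log2 change of -0.28 (SE 0.050, limma adjusted p = 7.33e-04). ACO1, on chr9:32384603-32454769 (plus strand), encodes the cytosolic aconitase that also serves as iron regulatory protein 1. Its RPKM was 23.4, 24.7, 25.03 and 25.4 in control replicates 1 to 4 and 17.3, 17.7, 17.6 and 17.8 in SB-treated replicates 1 to 4, with a log2 change of -0.46 (SE 0.035, limma adjusted p = 3.97e-06). The SB-treated values of ACO1 lay close together, far below the lowest control.

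The NAD-dependent isocitrate dehydrogenase is built from IDH3A, IDH3B and IDH3G, and its subunits moved in different directions. The catalytic alpha subunit IDH3A is on chr15:78131498-78171945 (plus strand). Its RPKM was 60.2, 49.1, 51.5 and 51.8 in control replicates 1 to 4 and 40.6, 38.1, 38.9 and 39.7 in SB-treated replicates 1 to 4, with a log2 change of -0.42 (SE 0.059, limma adjusted p = 1.78e-04). IDH3B went from 48.2 ± 2.01 to 38.9 ± 1.18 RPKM (SD, n = 4), which is a log2 change of -0.30 (SE 0.041, limma adjusted p = 1.41e-04). IDH3G, the regulatory gamma subunit on chrX:153785766-153794512 (minus strand), rose. Its RPKM was 26.8, 34.5, 35.6 and 35.1 in control replicates 1 to 4 and 40.8, 40.3, 39.3 and 39.2 in SB-treated replicates 1 to 4, with all SB-treated values above all controls and a log2 change of 0.27 (SE 0.080, limma adjusted p = 0.0131). Control replicate 1 was the lowest of the controls for IDH3G, and without it the log2 fold change was 0.18 (adjusted p = 1.85e-04). Among the NADP-dependent enzymes, mitochondrial IDH2 fell from 53.2 ± 2.06 to 41.8 ± 1.35 RPKM with a log2 change of -0.34 (SE 0.040, limma adjusted p = 5.83e-05). Cytosolic IDH1 fell from 22.3 ± 2.22 to 19.6 ± 0.479 RPKM, which is a log2 change of -0.17 (SE 0.062, limma adjusted p = 0.0320). Among the falls, the call for IDH1 was lost under the most alternatives. It ended without control replicate 3 and in 3 of the 4 fits that each left out an SB-treated replicate (those without replicates 2, 3 and 4), with library totals that lack the TMM factors (log2 fold change -0.07, adjusted p = 0.296) and after the GC and length correction (log2 fold change -0.09, adjusted p = 0.0897), and without control replicate 1 the log2 fold change was -0.12.

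The 2-oxoglutarate dehydrogenase complex, which converts 2-oxoglutarate to succinyl-CoA, was divided in the same way. OGDH, its E1 subunit, lies on chr7:44606572-44709066 (plus strand) and rose. Its RPKM was 10.7, 12.9, 12.8 and 13.5 in control replicates 1 to 4 and 15.4, 15.8, 15.6 and 15.5 in SB-treated replicates 1 to 4, with a log2 change of 0.30 (SE 0.061, limma adjusted p = 0.00167). OGDHL, a related E1 gene, had RPKM of 5.86, 7.37, 7.38 and 7.73 in control replicates 1 to 4 and 8.04, 8.60, 8.39 and 8.07 in SB-treated replicates 1 to 4 and a log2 change of 0.20 (SE 0.070, limma adjusted p = 0.0279). Both had their lowest value in control replicate 1. Without that replicate the log2 fold change was 0.24 for OGDH and 0.13 for OGDHL, with adjusted p-values of 3.62e-05 and 0.00498, and after the GC and length correction it was 0.19 and 0.12. The call for OGDHL ended without SB-treated replicate 2 or 3. DLST, the E2 subunit, fell. It lies on chr14:74881891-74903743 (plus strand), with RPKM of 43.7, 49.4, 49.1 and 50.2 in control replicates 1 to 4 and 36.7, 35.9, 36.03 and 36.2 in SB-treated replicates 1 to 4 and a log2 change of -0.40 (SE 0.046, limma adjusted p = 4.91e-05). DLD, the E3 subunit that is shared with the pyruvate dehydrogenase complex, went from 52.6 ± 4.48 to 41.8 ± 0.485 RPKM (SD, n = 4), which is a log2 change of -0.32 (SE 0.055, limma adjusted p = 5.99e-04).

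**Figure D2:**
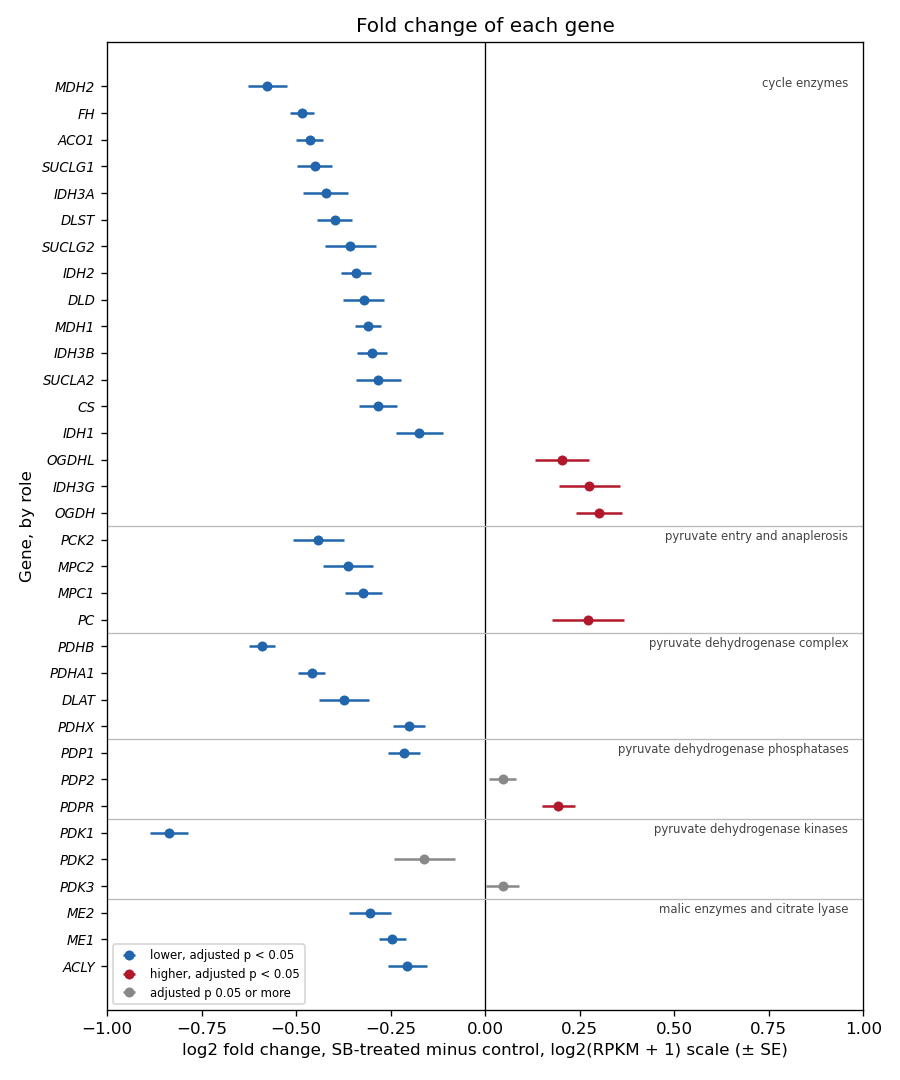
Points are log2 fold changes (SB-treated minus control, limma on log2(RPKM + 1)) and bars are standard errors, with genes on the vertical axis grouped by role. The 26 falls run from -0.17 for IDH1 to -0.84 for PDK1, the 5 rises from 0.19 for PDPR to 0.30 for OGDH, and PDP2, PDK2 and PDK3 did not pass the test.

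All 4 members specific to the pyruvate dehydrogenase complex fell. PDHB, the beta subunit of E1, is on chr3:58427630-58433857 (minus strand). Its RPKM was 85.3, 86.1, 90.1 and 85.6 in control replicates 1 to 4 and 58.5, 55.9, 57.98 and 56.9 in SB-treated replicates 1 to 4, with a log2 change of -0.59 (SE 0.034, limma adjusted p = 9.64e-07) and a 33.9% lower mean. PDHA1, the E1 alpha subunit that carries the regulatory phosphorylation sites, is on chrX:19343893-19361718 (plus strand). It had RPKM of 48.8, 45.1, 46.3 and 45.9 in control replicates 1 to 4 and 33.8, 33.3, 33.3 and 33.9 in SB-treated replicates 1 to 4 and a log2 change of -0.46 (SE 0.035, limma adjusted p = 3.95e-06). DLAT, the E2 acetyltransferase, is on chr11:112025408-112064404 (plus strand). Its RPKM was 39.4, 31.6, 32.00 and 32.1 in control replicates 1 to 4 and 25.6, 25.97, 25.5 and 25.9 in SB-treated replicates 1 to 4, where control replicate 1 was far above the other controls and all SB-treated values were below every control, with a log2 change of -0.37 (SE 0.065, limma adjusted p = 7.22e-04). Without that control the log2 fold change was -0.30 (adjusted p = 2.91e-06). PDHX, which anchors E3 to the complex, changed least of the 4, from 19.96 ± 0.83 to 17.2 ± 0.683 RPKM (SD, n = 4), which is a log2 change of -0.20 (SE 0.042, limma adjusted p = 0.00208). After the GC and length correction PDHX was at -0.13 (adjusted p = 0.00146). Summed over the 4 subunits the level went from 187 ± 5.62 to 134 ± 1.82 RPKM.

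Of the 3 listed kinases that switch the complex off, PDK1 fell and PDK2 and PDK3 did not pass. PDK1 had the largest change of all members. It lies on chr2:172555373-172608669 (plus strand), and its RPKM was 9.97, 9.08, 8.53 and 8.76 in control replicates 1 to 4 and 4.90, 4.52, 4.45 and 4.69 in SB-treated replicates 1 to 4. The highest SB-treated value was well below the lowest control, with a log2 change of -0.84 (SE 0.050, limma adjusted p = 1.08e-06) and a 48.9% lower mean. PDK1 stood at rank 95 of 14526 genes ordered from the largest fall. Because its RPKM is low, the pseudocount of 1 understates the change, and on reads recovered from the table the log2 fold change was -0.97 (voom, adjusted p = 2.65e-07). PDK2 had RPKM of 6.89, 8.85, 9.19 and 8.32 in control replicates 1 to 4 and 6.60, 7.98, 7.26 and 7.40 in SB-treated replicates 1 to 4. The groups overlapped, and the log2 fold change was -0.16 (SE 0.081, limma adjusted p = 0.107). Control replicate 1 had the lowest PDK2 value of the controls, and without it PDK2 passed at -0.24 (adjusted p = 0.00305), as it did after the GC and length correction at -0.24 (adjusted p = 0.00161). A replicate block also gave a call for PDK2 (-0.16, limma adjusted p = 0.0201), and the other alternatives without the block did not. PDK3 had RPKM of 7.02, 8.08, 7.97 and 8.04 in control replicates 1 to 4 and 8.11, 8.12, 8.04 and 7.94 in SB-treated replicates 1 to 4, also with overlap, and a log2 fold change of 0.05 (SE 0.045, limma adjusted p = 0.385). Without control replicate 1 PDK3 was at 0.00 (adjusted p = 0.8996). PDK4, a further kinase that is on the list of neighbouring genes and was singled out here after its values were seen, fell at a low level, from 1.26 ± 0.128 to 0.866 ± 0.0355 RPKM (log2 fold change -0.28, limma adjusted p = 4.17e-04). PDK1 made up a smaller part of the summed RPKM of the 3 kinases, from 36.2% ± 3.79 to 23.2% ± 1.33. The part of PDK2 went from 32.9% ± 2.95 to 36.5% ± 2.09 and that of PDK3 from 30.9% ± 1.07 to 40.3% ± 0.923.

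The phosphatases that switch the complex on divided in 3 ways. PDP1, a catalytic subunit, fell from 12.1 ± 0.636 to 10.2 ± 0.281 RPKM (SD, n = 4) with a log2 change of -0.21 (SE 0.042, limma adjusted p = 0.00151). PDP2, the other catalytic subunit, was at 6.79 ± 0.139 and 7.04 ± 0.283 RPKM, with overlapping groups and a log2 fold change of 0.05 (SE 0.036, limma adjusted p = 0.286). PDPR, the regulatory subunit on chr16:70114332-70162537 (plus strand), rose. Its RPKM was 13.3, 15.1, 14.04 and 15.1 in control replicates 1 to 4 and 16.3, 16.7, 16.6 and 16.6 in SB-treated replicates 1 to 4, with a log2 change of 0.19 (SE 0.044, limma adjusted p = 0.00341). The call for PDPR ended after the GC and length correction, where the log2 fold change was 0.05 (adjusted p = 0.187). PDPR also has a pseudogene copy, PDPR2P, in GENCODE, and 22.3% of its exonic bases overlap exons of a gene on the opposite strand, so the reads counted for it are less certain.

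**Figure D3:**
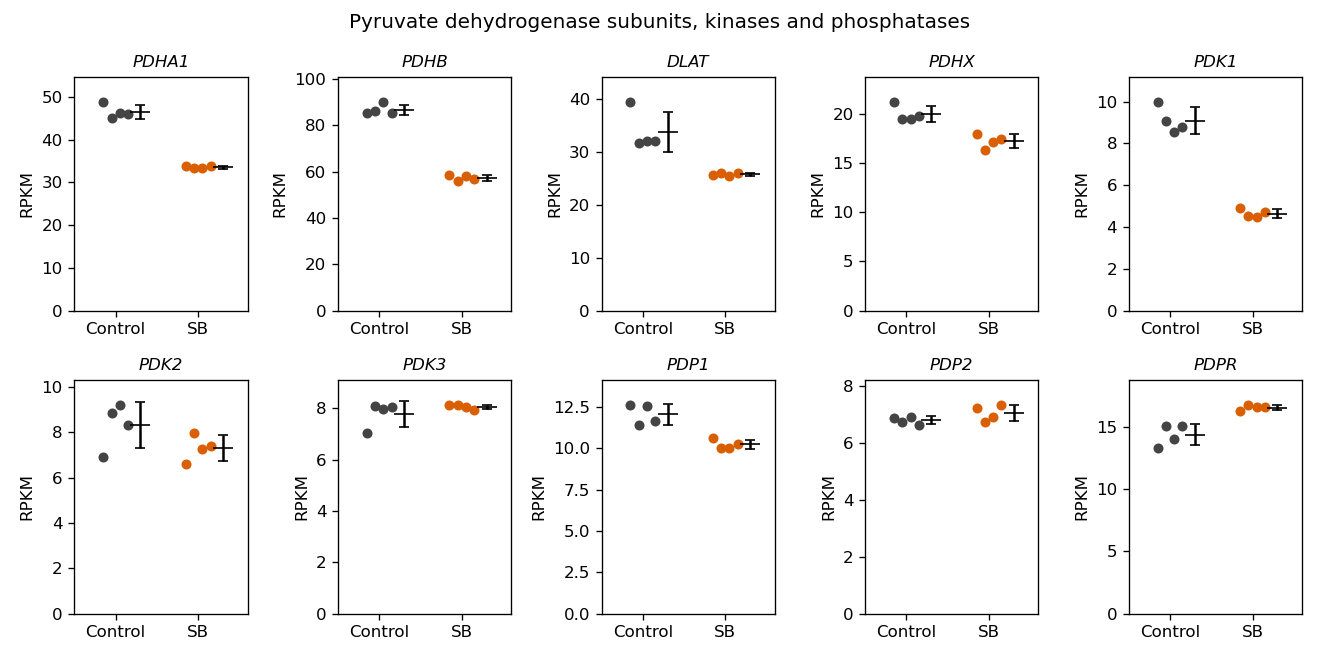
Each panel gives the RPKM of a gene in the 4 control and 4 SB-treated libraries as points, with the mean and SD beside them and the axis starting at 0. PDHA1, PDHB, DLAT, PDHX, PDK1 and PDP1 are lower in every SB-treated library than in every control, PDPR is higher, and PDK2, PDK3 and PDP2 overlap.

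The pyruvate carrier genes, PCK2 and the anaplerotic PC together held 3 falls and 1 rise. MPC1 and MPC2 form the mitochondrial pyruvate carrier. MPC2 lies on chr1:167916675-167937072 (minus strand), with RPKM of 30.7, 25.5, 26.3 and 24.2 in control replicates 1 to 4 and 19.5, 20.6, 20.9 and 20.8 in SB-treated replicates 1 to 4 and a log2 change of -0.36 (SE 0.065, limma adjusted p = 8.62e-04). MPC1 went from 40.2 ± 2.67 to 31.9 ± 0.995 RPKM (SD, n = 4), which is a log2 change of -0.32 (SE 0.050, limma adjusted p = 3.34e-04). After the GC and length correction MPC1 was at -0.12 and still passed (adjusted p = 0.0156). PCK2, the mitochondrial phosphoenolpyruvate carboxykinase, is on chr14:24094053-24110598 (plus strand). Its RPKM was 62.1, 75.7, 77.4 and 76.5 in control replicates 1 to 4 and 52.4, 55.00, 52.7 and 52.9 in SB-treated replicates 1 to 4, with a log2 change of -0.44 (SE 0.067, limma adjusted p = 2.86e-04). Control replicate 1 was the lowest control here too, and without it the log2 fold change was -0.52. PC, pyruvate carboxylase on chr11:66848417-66958386 (minus strand), rose, with RPKM of 6.25, 8.79, 8.64 and 9.15 in control replicates 1 to 4 and 10.2, 10.3, 9.64 and 9.96 in SB-treated replicates 1 to 4 and a log2 change of 0.27 (SE 0.094, limma adjusted p = 0.0286). Its control replicate 1 was far below the other controls, and without it the log2 fold change was 0.16 (adjusted p = 0.00117), as after the GC and length correction (0.16, adjusted p = 0.0283). The call for PC ended without SB-treated replicate 1, 2 or 4.

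The malic enzymes make pyruvate from malate, and ATP citrate lyase makes cytosolic acetyl-CoA from exported citrate. Cytosolic ME1 fell from 13.1 ± 0.385 to 10.9 ± 0.339 RPKM (SD, n = 4) with a log2 change of -0.25 (SE 0.036, limma adjusted p = 2.56e-04). Mitochondrial ME2 fell from 21.3 ± 1.86 to 17.01 ± 0.350 RPKM with a log2 change of -0.30 (SE 0.056, limma adjusted p = 9.30e-04). ACLY, with the third highest level per length in the controls among the members, fell from 126 ± 9.02 to 109 ± 1.17 RPKM with a log2 change of -0.21 (SE 0.051, limma adjusted p = 0.00542). With library totals that lack the TMM factors, ACLY was at -0.10 and did not pass (adjusted p = 0.119). The 5 members grouped here as wholly or partly cytosolic (ACO1, IDH1, MDH1, ME1 and ACLY) fell. So did 21 of the 29 members with a row that were grouped as mitochondrial.

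Upstream sequence was compared because so many of the members fell together. RefSeq (GRCh38.p14) gave 250 bases before the start of 32 of the 34 members, with 1 start listed per gene, which need not be the start used in these cells. The NRF1 site (GCGC, any base, TGCGC) was found on either strand in 4 of the 32, 12.5%, against 9.95% of 10651 genes of the table, and it was in IDH3A, IDH3G, SUCLA2 and MPC2. The ETS core CCGGAAG was in 5, 15.6% against 15.1%, namely IDH3B, IDH3G, DLST, MDH2 and ME2. The hypoxia response core ACGTG, which the E-box CACGTG contains, was in 8, 25.0% against 23.2%. These were IDH1, PDHB and DLAT, which fell, IDH3G, OGDHL and PC, which rose, and PDP2 and PDK3, which did not pass. The E-box itself was in OGDHL, PDHB and PDP2, 9.38% against 8.85%. The YY1 site AAGATGGCG and the cyclic AMP response element TGACGTCA were in none of the 32 windows and in 1.05% and 2.85% of all. Shown are the parts outside annotated exons for the member with the largest fall (PDK1), the cycle enzyme with the largest fall (MDH2) and the anaplerotic member that rose (PC), 5′ to 3′ on the strand of the gene, with matches to any of these motifs in capitals.
PDK1: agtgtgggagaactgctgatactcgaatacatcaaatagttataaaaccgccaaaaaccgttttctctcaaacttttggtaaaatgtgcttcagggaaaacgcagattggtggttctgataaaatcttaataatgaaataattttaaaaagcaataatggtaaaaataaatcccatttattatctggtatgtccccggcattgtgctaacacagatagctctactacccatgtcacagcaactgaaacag
MDH2: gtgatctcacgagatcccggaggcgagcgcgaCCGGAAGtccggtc
PC: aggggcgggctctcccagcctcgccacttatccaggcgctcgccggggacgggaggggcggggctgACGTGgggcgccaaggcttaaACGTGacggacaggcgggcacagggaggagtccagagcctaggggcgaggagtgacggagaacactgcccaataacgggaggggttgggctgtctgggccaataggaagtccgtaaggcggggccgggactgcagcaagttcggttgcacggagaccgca
The stretch of PDK1 is chr2:172555123-172555372 on the plus strand, and none of these letters are in it. That of MDH2 is chr7:76048005-76048050 on the plus strand, with an ETS core. That of PC is chr11:66958387-66958633 on the minus strand, with the ACGTG core at 2 places, starting 184 and 163 bases before the listed start. Its GC content is 67.6%, against 35.6% for that of PDK1. The median over the 250-base windows of all genes was 65.2%. These matches are a description and not evidence of binding.

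Ratios of paired genes within one library do not depend on how libraries are scaled. A set of 12 pairs of isoforms, subunits or compartment counterparts was compared by an exact two-sided permutation test of 4 against 4, whose smallest p is 0.0286, with adjustment over the 12. For 7 pairs the groups did not overlap and p was at that smallest value (adjusted p = 0.0490 in the permutation test for each of the 7). Of all single genes in the table, 61.5% had groups without overlap. No share over other gene pairs was computed, so the count of 7 cannot be read as particular to these pairs. The log2 ratio of PDK1 to PDK3 went from 0.22 ± 0.19 to -0.80 ± 0.06 (SD, n = 4) and that of PDK1 to PDK2 from 0.13 ± 0.28 to -0.65 ± 0.16. Over control replicates 2 to 4 the mean levels of PDK1 and PDK2 were alike, 8.79 and 8.79 RPKM, while PDK1 was the lowest of the 3 in every SB-treated library. IDH3B to IDH3G went from 0.55 ± 0.15 to -0.04 ± 0.07, from more IDH3B RNA to near parity of RNA per length. Amounts of the protein subunits were not measured. PDP1 to PDP2 went from 0.83 ± 0.05 to 0.54 ± 0.04. MDH1 to MDH2 rose from -0.37 ± 0.11 to -0.10 ± 0.05, since the mitochondrial gene fell further. Smaller shifts were seen for PDHA1 to PDHB, from -0.90 ± 0.07 to -0.77 ± 0.03, and for OGDH to OGDHL, from 0.82 ± 0.04 to 0.91 ± 0.03. The other 5 pairs overlapped. Their differences were 0.17 for IDH1 to IDH2 (permutation adjusted p = 0.214), -0.12 for IDH3A to IDH3B (0.229), 0.08 for SUCLA2 to SUCLG2 (0.240), 0.05 for ME1 to ME2 (0.343) and 0.05 for MPC1 to MPC2 (0.371). PDK1 and IDH3B each enter 2 pairs, so the 12 are not independent, and 7 tests at the smallest p are just enough for the adjusted value to pass. With any 1 library left out, 7 or 8 pairs still did not overlap. When it was an SB-treated library, 4 pairs had an unadjusted p below 0.05 and none passed the permutation test after adjustment. Without control replicate 1, IDH1 to IDH2 also passed, at 0.25 (permutation adjusted p = 0.0429), and the differences were -0.04 for IDH3A to IDH3B and 0.02 for ME1 to ME2 and for MPC1 to MPC2.

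**Figure D4:**
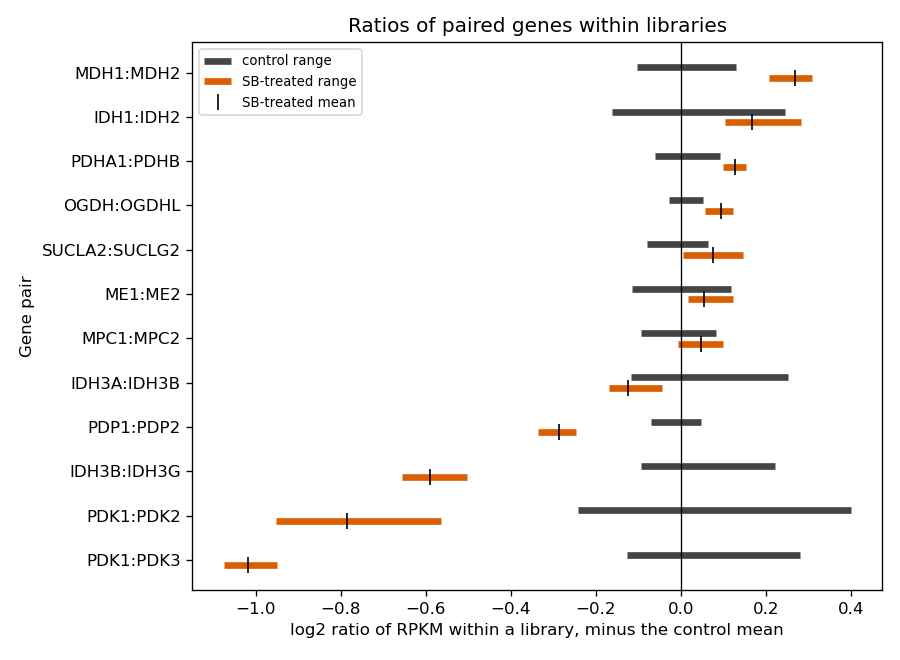
Bars span the lowest to the highest of 4 libraries for the log2 ratio of 2 genes within a library, minus the mean of the controls, with dark bars for control and orange bars for SB-treated libraries and a tick at the SB-treated mean. The bars of 7 pairs do not overlap, and PDK1:PDK3 moved furthest, by -1.02.

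The members were well expressed and differed in base composition between the directions. Their mean control levels ran from 6.79 RPKM for PDP2 to 154 RPKM for CS with a median of 34.1 RPKM, against 8.30 RPKM for all genes. The summed level of the cycle enzymes went from 946 ± 7.77 to 746 ± 3.62 RPKM (SD, n = 4), with no overlap between groups. GC content of the longest transcript was between 37.9% and 61.6% (median 43.4%) in the 26 that fell and between 49.5% and 61.1% (median 58.5%) in the 5 that rose. Over all genes with a GC value, the median log2 fold change rose from -0.04 in the quintile of genes with the lowest GC content to 0.07 in that with the highest, or from 0.00 to 0.03 without control replicate 1. Counted lengths ran from 1427 to 5825 bases in the 26 and from 1723 to 7999 bases in the 5. The correction takes GC content and length together, and the part of either in the members' changes was not tested apart from the other. After the GC and length correction 26 members were lower, 25 of them among the 26 above, and 4 of the 5 rises remained. Of the 13290 genes tested there, 36.6% were lower and 34.4% higher. Library totals without the TMM factors gave 24 falls and 7 rises among the members, with 23.1% of all genes lower and 43.0% higher. There the log2 fold changes that moved by more than 1.5 times with the call kept were -0.18 for CS, -0.20 for IDH3B, -0.18 for SUCLA2, -0.21 for MDH1, -0.10 for PDHX, -0.12 for PDP1, -0.15 for ME1 and 0.29 for PDPR.

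**Figure D5:**
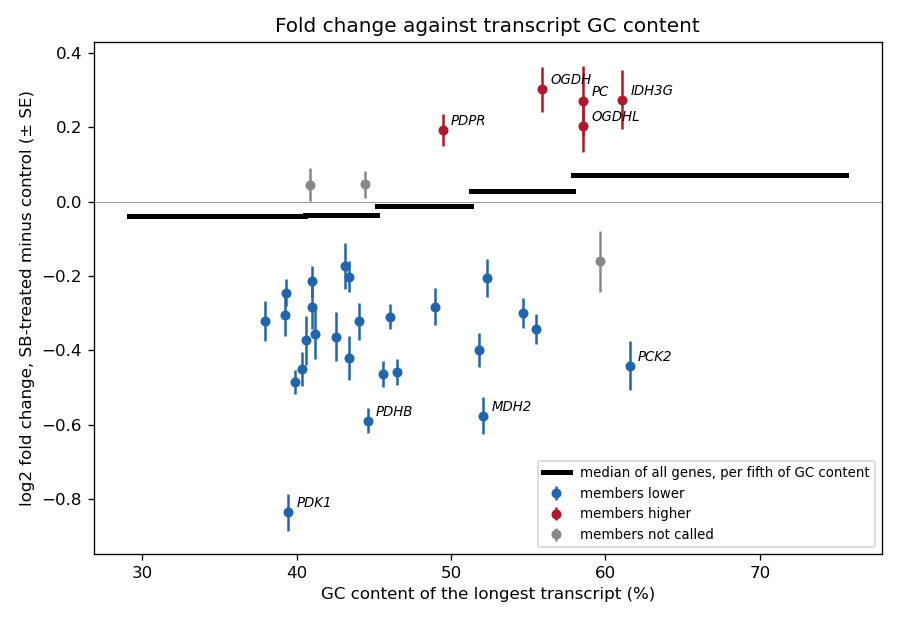
The horizontal axis is the GC content of the longest GENCODE transcript and the vertical axis the log2 fold change, with standard errors, of the 34 members. Black bars give the median of all genes in each quintile of GC content, from -0.04 to 0.07; PCK2 fell at a GC content of 61.6%, and IDH3G rose at 61.1%.

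Other genes around the cycle were also examined. Of 35 listed neighbours, 33 have a row, and PDHA2 and PCK1 have none. At a limma adjusted p below 0.05, 21 were lower (63.64%) and 5 higher (15.15%), against 32.6% and 33.0% of all genes. Succinate dehydrogenase is both a cycle enzyme and complex II of the respiratory chain. SDHB fell from 93.4 ± 4.93 to 63.2 ± 0.995 RPKM (log2 fold change -0.55, adjusted p = 3.89e-06), SDHA from 51.96 ± 2.88 to 39.4 ± 0.167 RPKM (log2 fold change -0.39, adjusted p = 3.57e-05) and SDHD from 59.4 ± 1.14 to 45.8 ± 0.778 RPKM (log2 fold change -0.37, adjusted p = 8.96e-06). SDHC was at 43.8 and 40.7 RPKM and did not pass (log2 fold change -0.10, limma adjusted p = 0.0549). The largest falls in the list were in lactate dehydrogenase A, the aspartate aminotransferase of the cytosol and the mitochondrial citrate carrier. LDHA fell from 382 ± 20.3 to 208 ± 3.52 RPKM (log2 fold change -0.87, adjusted p = 4.39e-07), GOT1 from 63.2 ± 2.95 to 38.1 ± 0.533 RPKM (log2 fold change -0.72, adjusted p = 8.68e-07) and SLC25A1 from 67.2 ± 7.77 to 41.3 ± 1.98 RPKM (log2 fold change -0.68, adjusted p = 5.41e-05). Among the rises were a pair of genes of glutamate metabolism. SLC25A22, a mitochondrial glutamate carrier, rose from 10.8 ± 1.59 to 15.1 ± 0.731 RPKM (log2 fold change 0.46, adjusted p = 0.00159), and GLS2, the liver-type glutaminase, rose from 0.833 ± 0.118 to 1.46 ± 0.157 RPKM (log2 fold change 0.42, adjusted p = 1.73e-04). These are limma values with n = 4 per group.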

How the data were processed

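RNA-seq data from 4 control and 4 SB-treated replicates (10 mM, 24 h) were used. The authors mapped 50 bp single-end reads from a stranded total RNA kit to hg38 with TopHat, counted them per gene with featureCounts (the strand setting is not given in the sources used here) and, with edgeR, left out genes unless 2 samples or more exceeded 1 CPM, and scaled library sizes by TMM. Per the submitters' notes the versions were TopHat2 2.1.0, featureCounts 1.5.0 and edgeR 3.16.5. The deposited table gives RPKM for each gene in each library, which was used here, and columns of their own comparison (fold change, mean log2 CPM, p-value and FDR), which were not. The number of unused per-sample columns was 0.

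The main test was limma 3.58.1 (R 4.3.3; lmFit, eBayes) of log2(RPKM + 1), without a further filter, and p-values were adjusted by Benjamini-Hochberg over the whole table of 14526 genes. Fold changes on this scale understate those of genes with low RPKM. The study calls the replicates biological but does not say whether they came from separate cultures or days, so p-values measure the spread between these samples. Whole reads were recovered from the RPKM values for 100% of genes (length tolerance 0.05 bases), up to a factor shared by all 8 libraries. In simulated reads of 14526 genes 99.6% came back exactly. The limma step was also tested on simulated data. Ratios used exact permutation tests in Python 3.11.15. Loci and transcripts were from GENCODE release 44 on hg38, and 91.5% of genes had a GC value. Exons of other genes overlap 38.8% of exonic bases of IDH3A, 38.6% of PDK2, 21.8% of MPC2, 19.3% of PDHA1 and 13.3% of DLAT, all on the opposite strand, and such reads could not be told apart here. GENCODE names pseudogene copies of CS, FH, DLST, MDH1, SUCLA2, SUCLG2, PDHA1, PDK1, ME2 and PDPR, which may share reads with them.

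The members, gene lists and tests were chosen with earlier results of these data known. Every member with a row is named, with values per sample for the 12 largest changes past the threshold and the kinases, and also for the members that rose, which were added after their values were seen. Of the neighbouring genes, the succinate dehydrogenase subunits with a row and the largest rises and falls are named, and PDK4. The other listed genes enter the counts only, and values of some are not reported here. Alternatives were a pseudocount of 0.1, a mean RPKM of at least 1, library totals without TMM factors, median-of-ratios scaling, a replicate block, voom, an intensity trend, leaving out each sample and, chosen after seeing the data, a correction for GC content and length (splines with 5 degrees of freedom) with and without the block.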

Additional observations from a re-analysis of the deposited data

Results flagged for a closer look

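For 6 of 68 groups examined (34 members in 2 groups of 4 libraries), 1 library lay far from the other 3, where chance gives about 3.4, and in all 6 it was control replicate 1. The measure is the gap of that library to its nearest neighbour as a share of the whole range of log2(RPKM + 1). Control replicate 1 was the lowest control for IDH3G (0.888), DLST (0.840), PC (0.846), PCK2 (0.90) and PDK3 (0.908), and the highest for DLAT (0.935). Its part in the results was measured by leaving it out. The calls for IDH3G, DLST, PC, PCK2 and DLAT then remained, and PDK3 did not pass with or without it.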

How the results depend on the processing

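The alternatives with a pseudocount of 0.1, the filter on mean RPKM, median-of-ratios scaling, voom and the intensity trend gave the same 26 falls and 5 rises. The replicate block gave these and a fall of PDK2 (adjusted p = 0.0201). Same-numbered replicates correlated at 0.38, 0.327, 0.173 and -0.16 in their deviations. The highest correlations with another number were 0.139, 0.18, 0.288 and 0.224. Replicates 1 and 2 thus correlated best with their own number, and replicates 3 and 4 with another. These values do not settle whether the numbers pair the samples. The TMM factors were 0.957 to 0.969 in the control libraries and 1.034 to 1.041 in the SB-treated libraries. Without TMM factors 1 member in place of 3 passed a log2 fold change of 0.5. The member median was then -0.21, and the median over all genes was 0.08. ACLY and IDH1 were lost, PDK3 and PDP2 passed as rises, and 65.1% of all calls were rises against 50.2%. With the GC and length correction, with and without the block, the member median was -0.24, IDH1 and PDPR were lost, PDK2 was gained, and the log2 fold changes of PDP2 and PDK3, which did not pass, turned from 0.05 each to -0.0475 and -0.0571. That correction changed the size of 11 called members by more than 1.5 times, and the scaling without TMM factors that of 10. Among the fits that each left out 1 sample, 3 to 5 members were higher, 25 to 27 lower and 3 to 4 past 0.5, and the median was -0.32 to -0.29. The 3 rises were those without SB-treated replicate 2, where OGDHL and PC did not pass. Neighbouring genes were higher in 5 and lower in 18 to 25. The number of ratios past the adjusted threshold was 7, from 0 to 8 when a sample was left out, and 0 with the replicate block, whose 4 pairs cannot give a p below 0.125. It was 0 without any 1 of the SB-treated replicates, where 4 pairs had an unadjusted p below 0.05 and 7 or 8 still did not overlap. The 12 ratio differences otherwise moved by less than the spread between replicates.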
